A study of Homo sapiens with 6 samples.

Results

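The distal part of chromosome 13, from 75 to 115 Mb of the hg19 genome, was examined in U2OS, a human osteosarcoma cell line with a rearranged, aneuploid karyotype. Chromatin was profiled by ATAC-seq, whose transposase inserts sequencing adapters where DNA is open, in 3 wild-type (WT) libraries and 3 libraries of CRAMP1 knockout cells (CRAMP1-KO). No other treatment is labelled, and both genotypes were grown in the same medium. The labels give neither the allele, nor whether the CRAMP1-KO cells were 1 clone, nor whether replicates were separate cultures, so every spread given is that between these libraries. The members are the 1717 regions with their midpoint in the block, out of 248031 regions obtained by merging the peaks of all 6 libraries that overlapped by at least 1 bp. The block was chosen because the sites in it stood lower in CRAMP1-KO, so its difference between genotypes is given as a description, and calls per bin from that same contrast are not separate evidence. The 2144 regions of the same chromosome from 19 to 75 Mb served for comparison.

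CRAMP1 is known as a regulator of the genes for linker histone H1, the protein that binds the DNA between nucleosomes and helps to compact it. In an ATAC-seq peak list, an open promoter or enhancer appears as a pileup of reads standing over a local background, the level expected from the reads around it. The reads measured per stretch of DNA depend on how open a site is and also on how many copies of that stretch the cells carry. Copy number was not measured, and a lower copy number and fewer cuts per copy cannot be told apart in these lists.

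The sequences around 5 gene starts, taken on either side of the edge and from starts with a large, a small and an overlapping difference, show how unlike these sites are. Each sequence runs from 250 bases before to 50 bases after the RefSeq start on GRCh38.p14, 5′ to 3′ on the strand of the gene. Capitals mark a GC box, a CCAAT box or an AP-1 site on either strand. DACH1 (chr13:71867155-71867454, minus strand) is the last listed gene start with a site before the drop and DIS3 (chr13:72781851-72782150, minus strand) is the first one in it. Of the block starts, COL4A1 (chr13:110307108-110307407, minus strand) is among those with the largest difference. TFDP1 (chr13:113584503-113584802, plus strand) had the smallest difference among the block starts without overlap. SLITRK6 (chr13:85799370-85799669, minus strand) is the exception in the block whose genotypes overlapped.
DACH1: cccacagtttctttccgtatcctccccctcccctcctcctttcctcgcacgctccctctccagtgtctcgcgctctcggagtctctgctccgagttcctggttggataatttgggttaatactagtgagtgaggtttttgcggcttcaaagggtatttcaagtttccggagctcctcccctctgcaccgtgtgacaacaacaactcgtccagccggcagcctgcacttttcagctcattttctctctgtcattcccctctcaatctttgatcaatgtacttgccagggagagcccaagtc
DIS3: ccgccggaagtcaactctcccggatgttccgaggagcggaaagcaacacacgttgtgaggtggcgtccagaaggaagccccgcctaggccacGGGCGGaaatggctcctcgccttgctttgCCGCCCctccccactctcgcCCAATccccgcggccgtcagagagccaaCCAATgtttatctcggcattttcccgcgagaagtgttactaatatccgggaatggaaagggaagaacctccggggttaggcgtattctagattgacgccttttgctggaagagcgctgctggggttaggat
COL4A1: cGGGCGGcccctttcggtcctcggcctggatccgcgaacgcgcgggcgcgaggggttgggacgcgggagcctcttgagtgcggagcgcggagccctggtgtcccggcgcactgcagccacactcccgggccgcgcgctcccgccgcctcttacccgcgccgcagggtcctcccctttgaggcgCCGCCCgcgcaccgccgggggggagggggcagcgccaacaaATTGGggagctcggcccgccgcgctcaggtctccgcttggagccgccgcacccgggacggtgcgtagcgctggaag
TFDP1: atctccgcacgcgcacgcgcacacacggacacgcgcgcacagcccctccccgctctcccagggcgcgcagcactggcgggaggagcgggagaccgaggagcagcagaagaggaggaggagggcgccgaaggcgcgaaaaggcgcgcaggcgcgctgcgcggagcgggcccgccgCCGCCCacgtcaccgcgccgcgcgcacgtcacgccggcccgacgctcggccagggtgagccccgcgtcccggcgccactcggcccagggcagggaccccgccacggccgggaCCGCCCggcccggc
SLITRK6: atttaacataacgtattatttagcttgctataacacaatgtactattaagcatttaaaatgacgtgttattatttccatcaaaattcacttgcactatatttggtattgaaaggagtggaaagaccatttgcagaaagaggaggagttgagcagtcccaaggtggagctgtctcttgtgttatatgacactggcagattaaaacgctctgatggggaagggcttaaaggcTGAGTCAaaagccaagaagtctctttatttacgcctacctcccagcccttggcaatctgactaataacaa

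The printed promoters span much of the range of base composition. G and C made up 53.0% of the DACH1 sequence, 58.7% of DIS3, 76.7% of COL4A1, 79.7% of TFDP1 and 38.7% of SLITRK6. A GC box, read as GGGCGG on either strand, was present in 27 of the 43 block promoters found in the table (62.8%) and in 45% of all 35116 promoters. A CCAAT box, read as CCAAT, was present in 30.2% of the block promoters and 34.6% of all. An AP-1 site, read as TGACTCA, was present in 4.65% of the block promoters and 4.95% of all. The median GC content was 71.7% in the block promoters and 58.7% in all. The block promoters are those of listed genes with a site in every library, a choice that favours active starts, and a match of letters is not a bound site. Matches of different motifs may overlap.

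Fewer peaks were called in the block in CRAMP1-KO. WT replicates 1, 2 and 3 had 1452, 1156 and 1006 peaks there, and CRAMP1-KO replicates 1, 2 and 3 had 834, 877 and 1039. The whole lists ranged from 132686 to 198875 peaks in WT and from 133756 to 157997 in CRAMP1-KO, and the number of reads is unknown. As a share of all peaks of a library, the block held 0.730%, 0.762% and 0.758% in WT against 0.624%, 0.630% and 0.658% in CRAMP1-KO, so every CRAMP1-KO library was below every WT library. The means were 0.750% ± 0.0175 and 0.637% ± 0.0181 (SD, n = 3), a log2 difference of -0.24. From 19 to 75 Mb the CRAMP1-KO share was the higher, at 0.983% ± 0.0263 against 0.901% ± 0.022 in WT (SD, 3 libraries each). There were 0.832, 0.827 and 0.840 block peaks for each peak from 19 to 75 Mb in WT against 0.646, 0.649 and 0.649 in CRAMP1-KO. Within a library, the block held more peaks per Mb than the stretch from 19 to 75 Mb in the 3 WT libraries (36.3, 28.9 and 25.2 against 31.2, 24.9 and 21.4) and fewer in the 3 CRAMP1-KO libraries (20.9, 21.9 and 25.98 against 23.1, 24.1 and 28.6). Its median peak was likewise wider in WT, by at most 5.5 bp, and narrower in CRAMP1-KO, by up to 24.5 bp. Over all 6 libraries these opposite signs average to 0.969 peaks per Mb (block minus stretch; exact sign-flip permutation test, two-sided, adjusted p = 0.531) and -8.75 bp (exact permutation adjusted p = 0.375), so neither mean describes a genotype. The signs of both means depend on the peaks used. At −log10 q of at least 10 the differences were -1.68 peaks per Mb and 13.7 bp, and in lists of equal length the former was -0.17. Peaks were also spread unevenly, so the peaks per Mb of the block do not describe most of its length. In WT a mean of 570 peaks lay from 110 to 115 Mb, against 36.7 to 172 in each other 5-Mb window of the block. In CRAMP1-KO these values were 402 and 32.7 to 126. The authors' fold enrichment over the local background was lower in the block in 6 of 6 libraries, at 6.20 ± 0.728 against 7.64 ± 0.832 on the stretch (SD, n = 6). The difference was -1.44 (exact permutation p = 0.03125, the smallest that 6 libraries allow, and adjusted p = 0.09375 over 3 measures). In WT this did not hold along the whole block. At sites with a peak in all 6 libraries, the WT log2 fold enrichment, scaled to each library's median such site, was 0.26 on the stretch. It was 0.32 from 75 to 93 Mb, 0.37 from 93 to 109 Mb, 0.18 from 109 to 112 Mb and -0.44 from 112 to 115 Mb. In CRAMP1-KO these parts had 0.07, 0.11, -0.04 and -0.46, against 0.24 on the stretch.

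Sites that were open in every library were lower in CRAMP1-KO as well. Of the members, 646 (37.6%) had a peak in all 6 libraries, against 43.3% from 19 to 75 Mb and 37.3% over all chromosomes. Their median summit pileup was 96, 87 and 52.5 reads in WT against 45, 45.5 and 70 in CRAMP1-KO, whereas the medians over all shared regions of the genome were 97, 87 and 53 in WT against 61, 62 and 96 in CRAMP1-KO. The WT block thus stood at the level of the genome's median site and the CRAMP1-KO block below it. Each library was therefore scaled to its own genome-wide median, and differences are given as log2 of CRAMP1-KO over WT, from the mean log2 value of each genotype. Raw pileups follow the depth of a library and compare between libraries only after this scaling.

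**Figure D1:**
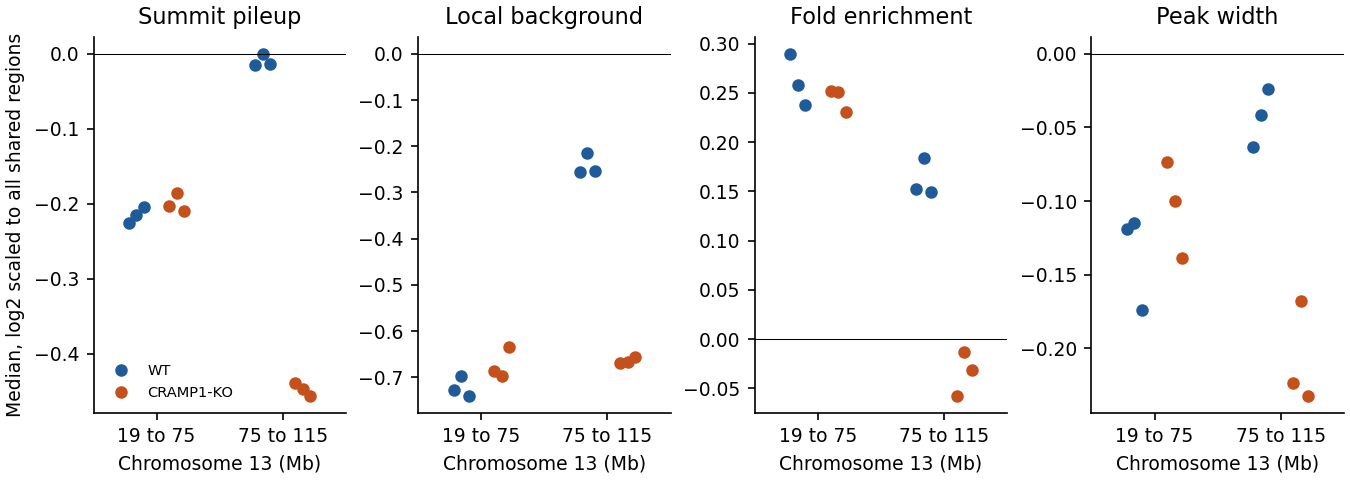
Median log2 level of the regions shared by all 6 libraries on chromosome 13 (y axis, scaled so that 0 is each library's median over all shared regions) for the stretch from 19 to 75 Mb and the block from 75 to 115 Mb; each point is 1 library, blue for WT and orange for CRAMP1-KO. From 19 to 75 Mb the pileups of the genotypes lie together, and in the block the 3 CRAMP1-KO libraries lie from -0.46 to -0.44 while the 3 WT libraries lie from -0.01 to 0.

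In the WT libraries, block sites had a higher pileup than sites from 19 to 75 Mb, by 0.21, 0.21 and 0.19 on the log2 scale. In the CRAMP1-KO libraries they had a lower one, with differences of -0.24, -0.26 and -0.25. The local background moved with the pileup, with block minus 19 to 75 Mb at 0.47, 0.48 and 0.49 in WT against 0.02, 0.03 and -0.02 in CRAMP1-KO. In neither measure did the genotypes overlap.

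Site by site, the median difference in pileup was -0.46 in the block (middle 50% of sites from -0.64 to -0.26), -0.07 from 19 to 75 Mb and -0.07 over all 92505 shared regions. Every CRAMP1-KO library was below every WT library at 425 of the 646 shared block sites (65.8%), against 23.7% of all shared regions and 22.6% of those from 19 to 75 Mb. The reverse held at 9 block sites (1.39%), against 14.4% of all shared regions. These shares describe the contrast that chose the block. The peak width, scaled likewise, had a median difference of -0.17 in the block, -0.04 from 19 to 75 Mb and -0.05 over all shared regions. By this scaled width, 31.9% of block sites were narrower without overlap, against 12.9% of all shared regions. Unscaled, the median width of all block peaks was 343.5, 396 and 369.5 bp in WT against 429.5, 395 and 412 bp in CRAMP1-KO.

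The pileup, the local background and their ratio did not differ to the same extent. In the lists the local background cannot go below a library's genome-wide level, its floor, and 25.9% to 27.4% of the shared block sites per WT library and 37.5% to 41.2% per CRAMP1-KO library lay at it. At the 363 shared block sites above the floor in all 6 libraries, the median difference was -0.50 in pileup, -0.41 in background and -0.12 in fold enrichment. The 503 such sites from 19 to 75 Mb had -0.12, 0.00 and -0.12. The CRAMP1-KO over WT ratio of the block was thus 76.5% of that of the stretch in pileup, 75.2% in background and 99.8% in fold enrichment. These percentages compare differences between genotypes, not levels of the block and the stretch. For fold enrichment the percentage was 93.9% over all shared sites and 80.8% over sites at the floor in some libraries. It was 79.6% over sites at the floor in all 6, where the background cannot fall. A lower background in CRAMP1-KO itself takes sites out of the group above the floor. Each CRAMP1-KO background was below every WT background at 86.5% of these 363 sites, against 15.6% of the 69905 regions of the genome above the floor in all 6 and 12.8% of all shared regions. At the 149 block sites at the floor in all 6 libraries the pileup differed by -0.29, against 0.05 at the 269 such sites from 19 to 75 Mb. The background also takes in reads of neighbouring peaks. At the 44 block sites above the floor with no other region within 10 kb, the median differences were -0.60 in pileup and -0.44 in background.

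The proximal edge of the difference lay 2 Mb before the border of the block. When the chromosome was split at a 1-Mb border into the pair of pieces that fitted the site differences best, the split fell at 73 Mb, with medians of -0.06 over the 905 shared sites before it and -0.47 over the 675 after it. From 54 to 72 Mb, limits set by hand, the 74 shared sites had a median of 0.20. Of them, 1 (1.35%) was lower in CRAMP1-KO without overlap, against 23.7% of all shared regions, and 32 (43.2%) were higher, against 14.4%. The bin from 72 to 73 Mb, directly before the split, was mixed. It held 8 shared sites with a median of -0.27, 3 lower without overlap and 1 higher.

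**Figure D2:**
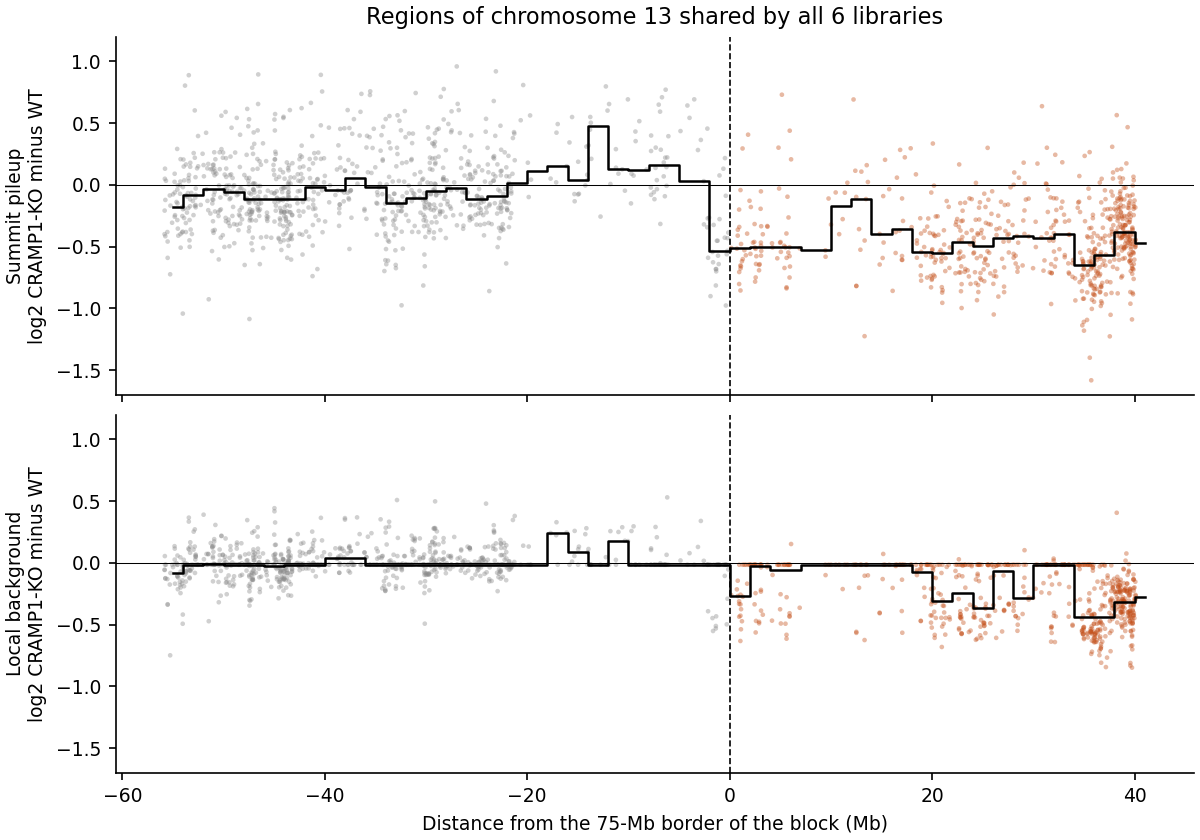
Difference between genotypes (y axis, log2 CRAMP1-KO minus WT) in summit pileup and in local background for each region of chromosome 13 shared by all 6 libraries, against its distance in Mb from the 75-Mb border (dashed line); grey points lie before the border, orange points after it, and the black line is the median per 2 Mb where at least 3 sites lie. Pileup differences drop about 2 Mb before the border and lie mostly well below 0 from there to the end of the chromosome. Exceptions are the 1-Mb bins at 88 Mb (-0.05) and 90 Mb (-0.09), near the median of all shared regions. Background points on a line just below 0 are at the floor.

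Single sites show a mixed stretch before the edge. The site at the start of DACH1, a transcription cofactor of organ development, at 72441060-72441815 had pileups of 77, 87 and 59 in WT against 65, 65 and 81 in CRAMP1-KO, a scaled difference of 0.03. The genotypes overlapped there, and its background differed by 0.02. Between it and the site at 72865264 lay 4 shared sites at the floor. Those starting at 72454994, 72779396 and 72830186 had -0.32, -0.34 and -0.27, the last 2 of them without overlap, and that at 72795229 had 0.46. The site at 72865264-72866236 had pileups of 226, 203 and 138 in WT against 99, 94 and 162 in CRAMP1-KO, a scaled difference of -0.59, and its background differed by -0.39. The nearest site before it that was above the floor in all libraries lay at 68830960-68831975, with 0.22 in pileup and 0.53 in background. In the gap between these sites the lists give no background above the floor in all libraries. From the site at 72865264 to 75 Mb, 17 of 25 shared sites were lower without overlap (23.7% of all shared regions) with a median of -0.53, and all 6 sites above the floor had a lower background, from -0.55 to -0.39. In the first 3 Mb of the block the median was -0.52. DIS3, which encodes a catalytic subunit of the RNA exosome, starts in the lower stretch. Its site at 73355627-73356584 had pileups of 334, 347 and 194 in WT against 154, 155 and 208 in CRAMP1-KO. Scaled to each library these are 3.44, 3.99 and 3.66 against 2.52, 2.5 and 2.17 times the median site, a difference of -0.63 without overlap.

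The difference extended to the last shared sites of the chromosome. The split above fitted a single border, so it could not give a distal edge as well. The 6 shared sites beyond 115 Mb had a median of -0.47, and 5 of them were lower without overlap, against 23.7% of all shared regions. They include the starts of CDC16, a subunit of the anaphase-promoting complex (-0.46), UPF3A, a factor of nonsense-mediated decay (-0.50), and CHAMP1, a protein of chromosome alignment (-0.49). At CDC16 the scaled pileup was 4.54, 4.31 and 4.40 in WT against 3.57, 3.08 and 3.02 in CRAMP1-KO.

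Within the block the difference was uneven. All 33 block bins of 1 Mb with at least 5 shared sites had a median below 0. So did 30 of 43 such bins from 19 to 75 Mb, and the median over all shared regions was itself -0.07. Of the 646 shared block sites, 52 lay above 0. The largest differences lay in the bins starting at 109 Mb (-0.68), 101 Mb (-0.65), 111 Mb (-0.65), 110 Mb (-0.62) and 108 Mb (-0.59). The smallest lay in those starting at 88 Mb (-0.05), 90 Mb (-0.09), 104 Mb (-0.21), 113 Mb (-0.29) and 107 Mb (-0.29). The first 2 of these rest on 6 and 5 sites and lie near the median of all shared regions. The bin at 113 Mb held 67 sites. By stretch, the median was -0.47 from 75 to 93 Mb (115 sites), -0.46 from 93 to 109 Mb (235 sites), -0.65 from 109 to 112 Mb (111 sites) and -0.38 from 112 to 115 Mb (185 sites). From 112 to 115 Mb the fold enrichment differed by -0.05 and the background by -0.31. The limits at 109 and 112 Mb were set by hand and enclose the bins at 109, 110 and 111 Mb, so that stretch restates those bins. In windows of 5 Mb over the genome, 7 of the 8 block windows were among the 10 lowest of 595 with at least 10 shared sites, and the lowest was the first 5 Mb of chromosome 11 (-0.56). The eighth, from 85 to 90 Mb, ranked 20 with -0.28.

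The number of peaks per bin showed less than the pileup. Of the 36 block bins of 1 Mb with enough peaks, 10 held a lower share of the peaks in CRAMP1-KO and 0 a higher one by limma at an adjusted p under 0.05, against 6.68% and 18.0% of all 2828 bins (189 and 508 bins). Scaled to the median log ratio of the bins, 10 block bins were again called lower and 0 higher, but 384 and 359 of all bins. The bins at 112, 111 and 101 Mb had log2 differences of -0.52 (SE 0.06), -0.49 (SE 0.08) and -0.62 (SE 0.13). The block was chosen from this contrast, so the counts are not separate support. Without CRAMP1-KO replicate 2, 6 block bins were called lower. From 75 to 95 Mb no bin was called lower, although the pileup of the shared sites there was lower.

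Strong and weak sites were compared by their mean pileup over all 6 libraries, in 5 classes with limits set on the shared sites of chromosome 13. From the weakest to the strongest class, the block medians were -0.36, -0.39, -0.47, -0.55 and -0.53. From 19 to 75 Mb they were 0.03, 0.03, 0.02, -0.10 and -0.17, and over all chromosomes, with limits set on all shared regions, the strongest class had -0.16. The block minus the stretch from 19 to 75 Mb was -0.40, -0.42, -0.49, -0.45 and -0.36, with no order from weak to strong. Sites lower without overlap made up 39.4%, 52.2%, 68.0%, 86.8% and 82.9% of the block classes. That share also rose with strength over all shared regions, at 15.99%, 17.7%, 19.8%, 27.5% and 37.3% of their own classes.

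**Figure D3:**
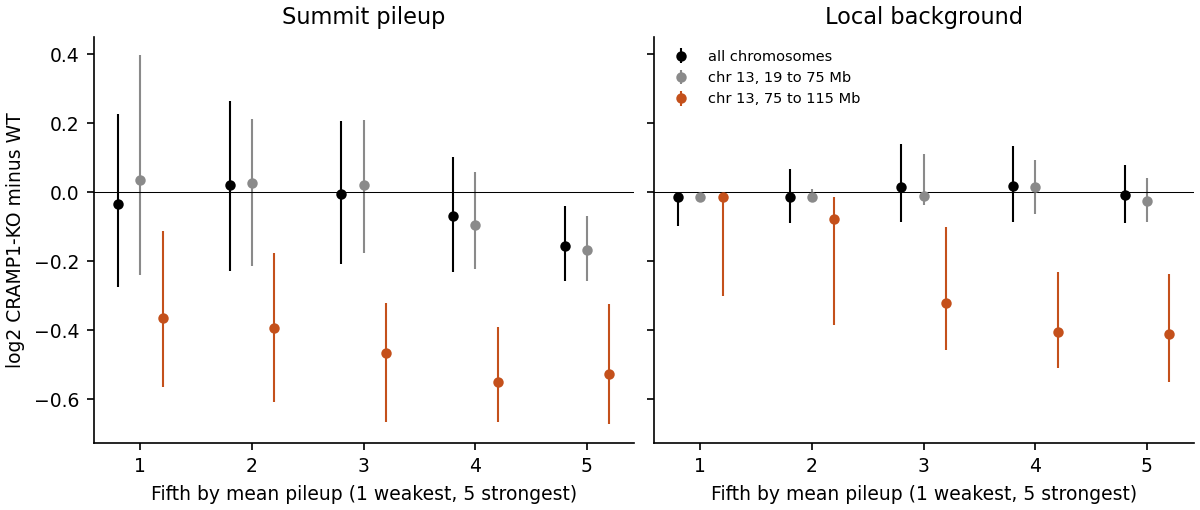
Median difference between genotypes (y axis, log2 CRAMP1-KO minus WT; bars span the middle 50% of sites) in summit pileup and in local background for 5 classes of shared regions by mean pileup (x axis, weakest to strongest), for all chromosomes (black), chromosome 13 from 19 to 75 Mb (grey) and the block (orange). The block lies below both others in every class in pileup, from -0.36 to -0.55, and its background difference is nearest to 0 in the weakest class, whose median site is at the floor.

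The strongest shared sites lay near the end of the chromosome. The first, at 114539907-114542133, had pileups of 781, 856 and 533 in WT against 446, 490 and 597 in CRAMP1-KO, which is 8.05, 9.84 and 10.1 against 7.31, 7.90 and 6.22 times the median site and a difference of -0.38. The sites at 114829676-114831741, 114599840-114600868, 113365851-113366860 and 114523761-114524791 differed by -0.48, -0.63, -0.35 and -0.61. At all 5 the genotypes did not overlap. The largest difference of any shared block site, -1.58, lay at 110714328-110715847, with pileups of 108, 124 and 81 in WT against 32, 27 and 38 in CRAMP1-KO, and its background differed by -0.74. The site at 80155847-80156584 went furthest the other way, by 0.73, with 47, 49 and 24 in WT against 48, 48 and 89 in CRAMP1-KO and a background at the floor. These last sites were picked after their values were seen.

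Sites called in a single genotype were mostly WT sites. A peak was present in all 3 WT libraries and no CRAMP1-KO library at 39 members (2.27%), against 1.14% of all regions and 17 regions from 19 to 75 Mb. The reverse held at 5 members (0.291%), against 0.767% of all regions and 32 regions from 19 to 75 Mb. Of the 835 members called in all 3 WT libraries, 77.4% were called in all 3 CRAMP1-KO libraries too, against 89.1% from 19 to 75 Mb and 85.4% over all chromosomes. Of the 680 members called in all 3 CRAMP1-KO libraries, 95.0% were called in all 3 WT libraries, against 83.1% and 87.0%. From 110 to 115 Mb lay 22 of the 39 WT-only members and 834 of the 1717 members. No member was WT-only among the 108 from 75 to 80 Mb and the 66 from 80 to 85 Mb, where 3 of the 5 CRAMP1-KO-only members lay. With WT-only regions at 1.14% of all regions, these stretches are too small for a difference to be read. These counts rise when any library is left out, since the rule then asks for fewer libraries, so a rise does not by itself mark that library. The WT-only count was 73 when WT replicate 2 was left out, 104 for WT replicate 3 and 74 for CRAMP1-KO replicate 3. The CRAMP1-KO-only count was 6 for WT replicate 3 and 8 to 13 for the others.

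**Figure D4:**
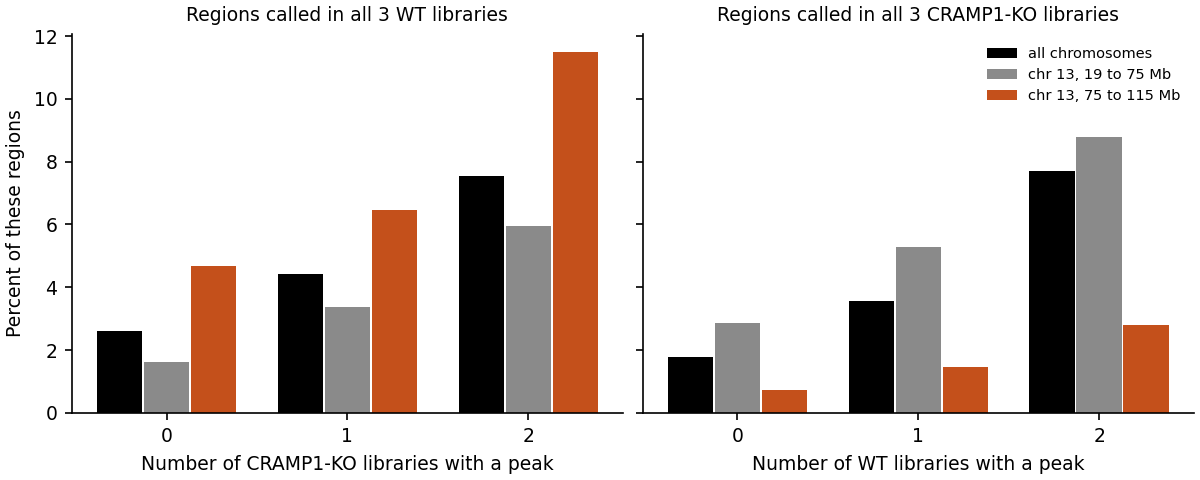
Percent of regions (y axis) called in all 3 libraries of a genotype that had a peak in 0, 1 or 2 libraries of the other genotype (x axis), for all chromosomes (black), chromosome 13 from 19 to 75 Mb (grey) and the block (orange). Of the block regions in all WT libraries, 4.67% had no CRAMP1-KO peak, the highest of the 3 bars, and of those in all CRAMP1-KO libraries 0.735% had no WT peak, the lowest.

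The WT-only members were weak sites as a rule, with a median −log10 q of 7.87 and a median width of 377 bp. The strongest, at 95932701-95933103, had pileups of 68, 54 and 31 in the WT libraries and fold enrichments of 11.2, 11.3 and 9.0. That at 110280473-110280788 had pileups of 41, 35 and 19, that at 101298483-101298958 had 38, 38 and 14, and that at 101607218-101607508 had 46, 31 and 17. The site at 114520550-114520897 had 185, 173 and 118, but on a high background, so that its fold enrichment was 2.38, 2.2 and 2.38. Among the CRAMP1-KO-only members, the strongest at 84328293-84328975 had pileups of 23, 34 and 45 and fold enrichments of 5.72, 8.70 and 8.49. The others lay at 93042544-93042835, 78354025-78354318, 75676313-75676707 and 104440527-104440787, with pileups of 13 to 36. A missing peak means that no pileup is listed, not that no read was there.

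The gene starts of the block were lower almost without exception. Of 66 genes listed for the block, 58 had a start whose position passed a check against neighbouring genes, 50 of these had a region within 1 kb, and 47 had one in all 6 libraries, at 43 distinct sites. All 47 had a difference below 0, with a median of -0.61, and at 46 every CRAMP1-KO library was below every WT library, against 23.7% of all shared regions. The 14 such genes from 19 to 75 Mb had a median of -0.13, with 5 lower without overlap, among them DIS3. Gene starts are strong sites, and the strongest class of block sites as a whole had -0.53.

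Among genes of extracellular matrix, COL4A1 and COL4A2, which encode the main chains of basement membrane collagen and start back to back, share a site at 110958734-110961421. Its pileup was 176, 139 and 85 in WT against 55, 52 and 93 in CRAMP1-KO, a difference of -0.89 in pileup and -0.63 in background. GPC5, a cell-surface proteoglycan, had -0.61. All 3 genes were lower without overlap.

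Signalling genes had a site in all libraries at 6 of the 9 starts that passed the check, each lower without overlap, with a median of -0.62. ARHGEF7 had the largest difference of all starts, -0.96, at a weak site with pileups of 62, 49 and 30 in WT against 22, 20 and 23 in CRAMP1-KO. The Akt substrate TBC1D4 (-0.65), the kinase STK24 (-0.71), the small GTPase RAP2A (-0.58), the receptor tyrosine kinase antagonist SPRY2 (-0.58) and the Ras GTPase-activating protein RASA3 (-0.55) followed. EFNB2, a ligand of Eph receptors, had a weak site near but not over its listed start, in 2 WT libraries and no CRAMP1-KO library.

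Cell cycle genes had the smallest median of the groups with at least 4 genes. All 4 were lower without overlap, with a median of -0.40. CUL4A, DCUN1D2 and TFDP1 lie from 112 to 115 Mb, where the median of all shared sites was -0.38, so role and position cannot be told apart here. ING1, a growth regulator that reads histone methylation, had -0.72, with scaled pileups between 3.84 and 4.34 in WT and between 2.28 and 2.98 in CRAMP1-KO. CUL4A, a ubiquitin ligase scaffold that shares its site with PCID2, had -0.36. DCUN1D2, which promotes neddylation and shares its site with TMCO3, had -0.45. TFDP1, the dimer partner of E2F factors, had -0.28, from pileups of 466, 429 and 319 to 276, 278 and 374.

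Both DNA repair genes were lower without overlap. LIG4, the ligase of end joining, had -0.74 at a site shared with ABHD13, and ERCC5, a nuclease of nucleotide excision repair, had -0.47. Both genes of protein folding in the endoplasmic reticulum were lower too, with -0.59 at DNAJC3 and -0.67 at UGGT2. MIR17HG, the host gene of the miR-17-92 cluster, had -0.61, with pileups of 214, 176 and 141 in WT against 118, 87 and 119 in CRAMP1-KO. Of the coagulation factors, F10 had -0.42, and F7 had a site in 3 WT libraries and 1 CRAMP1-KO library.

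Most developmental transcription factors had no site to compare. Of 5 that passed the check, SOX21 had a site in every library, within 1 kb of the listed start but not over it. That site was lower without overlap, with a difference of -0.61. No region lay within 1 kb of the listed starts of POU4F1, ZIC2, ZIC5 and SOX1. The listed starts were checked only to within 1 kb, so a site may have been missed. Of the neuronal adhesion genes, SLITRK1 had -0.53. SLITRK6 had -0.06, with pileups of 37, 35 and 23 in WT against 17, 32 and 39 in CRAMP1-KO. Its genotypes overlapped, and its WT pileups were the lowest of the named gene starts with a site in every library.

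The remaining 25 genes with a site in all libraries were each lower without overlap, from -0.87 to -0.32 with a median of -0.63. ANKRD10 had -0.87, from pileups of 411, 473 and 325 to 182, 206 and 224. The drug and nucleotide exporter ABCC4 had -0.83, FARP1, a guanine nucleotide exchange factor of neurons, -0.80, UBAC2 -0.77, the nucleotide sugar enzyme TGDS -0.74 and PCCA, a subunit of propionyl-CoA carboxylase, -0.72. MYCBP2, a large ubiquitin ligase, had -0.69, LAMP1, the lysosomal membrane protein, -0.52, and KCTD12 the smallest difference, -0.32.

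**Figure D5:**
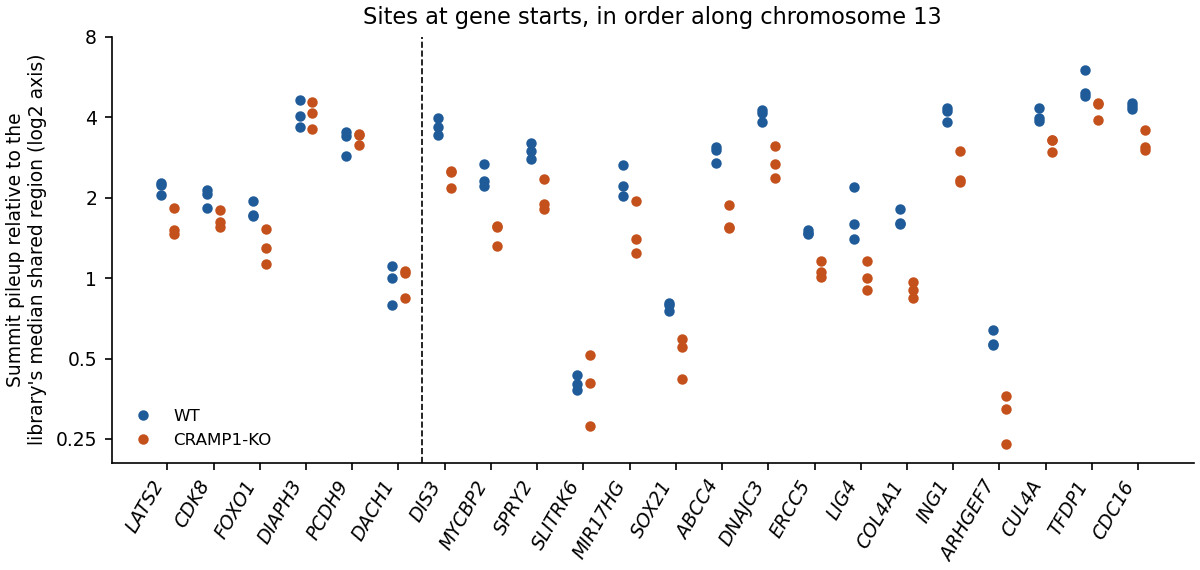
Summit pileup relative to the library's median shared region (y axis, log2 scale) at the start sites of 22 genes in their order along chromosome 13; each point is 1 library, blue for WT and orange for CRAMP1-KO, and the dashed line lies between DACH1 and DIS3. Of all listed starts with a site in every library, 4 of the 13 before the line were lower without overlap, LATS2, CDK8 and FOXO1 among them, and 50 of the 51 after it, where only SLITRK6 overlaps.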

How the data were processed

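ATAC-seq was done on 3 WT and 3 CRAMP1-KO libraries of U2OS cells. The submitters' processing notes name the genome build hg19 and the tools MACS3, BWA 0.7.17-r1188, cutadapt 3.4 and bcl2fastq 2.20.0. Not given in the sources used here are the caller's settings, duplicate handling and any read shift. The authors deposited 1 peak list per library, with q of at most 0.05. The deposited score is 10 times −log10 q, truncated. The deposited fold enrichment is a ratio within a library, taken as the summit pileup plus 1 over the local background plus 1. The −log10 p and −log10 q, as the authors deposited them, rate the summit against that background. No counts or depth are given, so no counting interval was computed.

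Pileup and background were solved from fold enrichment and −log10 p. All pileups came out whole within 0.01, and the solver was tested on simulated peaks. Peaks overlapping by 1 bp or more were merged. Log2 values were scaled per library to the median over the regions shared by all 6 libraries. For bins of 1 Mb with a mean of 5 peaks or more, log2 shares of peaks (pseudocount 0.5) went into limma 3.58.1 (R 4.3.3), with Benjamini-Hochberg adjustment over all bins and a threshold of 0.05. Stretches within libraries were compared by a two-sided exact sign-flip permutation test. Scripts ran in Python 3.11.15 with pandas 2.3.3, numpy 2.4.6, scipy 1.17.1 and matplotlib 3.10.9.

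Gene starts on hg19 were written by hand by role, and a start was kept where its distance to at least 1 of the 2 nearest listed genes on either side was within 1 kb of that in the RefSeq gene table of GRCh38.p14. The site of a gene is the region nearest to its start within 1 kb. Block genes with a site in all 6 libraries were named by role, the 5 regions with the highest median −log10 q per genotype among those called in that genotype alone, the 5 shared regions with the highest pileup, and the bins at the edge and with the 5 largest and 5 smallest differences. The members and lists were chosen with earlier results of these data known. Alternatives were other scalings, q limits, overlap rules, list lengths, bin sizes, a block by replicate number, and leaving out each library. Promoter sequences are those of RefSeq on GRCh38.p14, and 43 of 47 genes matched.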

Additional observations from a re-analysis of the deposited data

How the results depend on the processing

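The median pileup difference of the block, -0.46 on the log2 scale, kept its direction under every alternative tried. It was -0.48 scaled to chromosome 13 from 19 to 75 Mb, -0.45 scaled by the lowest background, -0.45 at a −log10 q limit of 10, -0.45 with an overlap of at least 0.5 of the shorter peak, and -0.48 to -0.43 when each library was left out in turn. The background difference, -0.29, was -0.34 scaled to 19 to 75 Mb and -0.31 to -0.26 without 1 library. It was -0.015 among the 157 sites with no other region within 10 kb, of which 44 lie above the floor in all libraries.

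The 39 WT-only regions became 46 to 104 without 1 library and the 5 CRAMP1-KO-only regions 6 to 13, since the rule then asks for fewer libraries. At a −log10 q limit of 5 there were 2 CRAMP1-KO-only regions. The proximal edge, at 73 Mb by pileup, fell at 94 Mb by local background, the median site from 75 to 93 Mb being at the floor, and at 69 Mb by the background of sites above the floor, an alternative chosen after seeing the data, with no such site between 69 Mb and the site at 72865264. Bins of the block called lower numbered 6 to 11 without 1 library, against 10, the 6 being without CRAMP1-KO replicate 2.

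Within libraries, the difference in peaks per Mb (0.969) turned to -0.17 in lists of equal length and to -1.68 at a −log10 q limit of 10, and that in width (-8.75 bp) to 13.7 bp at that limit. The cause was not tested. With the replicate number as a block in the limma fit, 9 block bins were called lower in place of 10, and the pileup difference was -0.46. The labels do not say whether the numbers pair the libraries. The correlations of same-numbered libraries' deviations were 0.06, 0.06 and -0.09. Those of differently numbered libraries ranged from -0.16 to 0.10, so these values cannot decide it.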
